A study of Mus musculus with 24 samples.

Results

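Chemokines, cytokines and the genes of NF-kB signalling were examined in the livers of mice lacking Ogg1, the DNA glycosylase that removes oxidized guanine from DNA, and of wild-type (WT) counterparts. The group held 45 genes chosen by name for their role in inflammation, with earlier results of these data known. Of these, 43 were measured by a probe set that carried their symbol alone, out of 19938 such genes on the array, and Il1r1 and Nfkb1 were not analysed here. Each gene was read from its brightest probe set. Only Ccl19 had more than 1, with 5 probe sets that averaged log2 7.54 to 7.60, and since Ccl19 has near-identical copies in the mouse genome its signal may be shared with them. Mean signals of Cxcl2, Ccr2, Il6, Il10 and Tlr4 lay under log2 5, near the dim end of the array, and the other 38 members averaged log2 5 or more.

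Livers came from male C57BL6 mice in 4 groups of 6, Ogg1-/- and WT mice fed a high-fat diet (HFD) and Ogg1-/- and WT mice fed chow, for 10 weeks in each case. By the labels the mice were 10 weeks old at the start, although the study's methods give another age, and all were housed individually. The Ogg1-/- allele was a whole-body knockout kept on the C57BL/6J background, and each array held total RNA of 1 liver, so that the signal of every cell type in the organ was summed. Fewer cells of a type and less RNA per cell therefore cannot be told apart. The sources used here do not give the hour at which livers were collected, so hour and group cannot be told apart.

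Ogg1 itself, measured as a check of the labels, averaged log2 5.87 ± 0.13 in HFD-fed Ogg1-/- livers and 6.46 ± 0.08 in HFD-fed WT livers, and 5.93 ± 0.06 in chow-fed Ogg1-/- livers and 6.47 ± 0.11 in chow-fed WT livers (SD, n = 6 each). The genotypes did not overlap on either diet. No source used here says whether the deletion covers the stretch that this probe set reads. Hepatocyte markers were bright in every liver, with a mean over 7 genes of log2 13.40 to 13.87. Chow-fed Ogg1-/- replicate 1 stood apart from its group, being the highest of its 6 livers for 40.1% of all genes.

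NF-kB is a family of dimeric transcription factors, among them RelA (Rela), that are held in the cytosol by IkB proteins such as IkBα (Nfkbia). Toll-like receptors and the receptors of IL-1 and TNF signal through adaptor proteins and kinases that remove IkB, upon which NF-kB enters the nucleus and induces chemokines, cytokines, adhesion molecules and its own inhibitors Nfkbia and Tnfaip3. In liver, Kupffer cells, recruited monocytes, sinusoidal endothelial cells and hepatocytes all take part in this response, and chemokine and cytokine induction is a known feature of fatty liver disease.

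The promoters of 5 members are shown, picked among those with a match to the NF-kB consensus described below. Each of these members differed between groups or belongs to the classical NF-kB targets. Of the measured members, 32 had a promoter in the RefSeq table (GRCm38.p6), in which the 10-letter NF-kB (kB) consensus was searched by name on both strands over the 250 bases before the start. It was found in 10 of these 32 members (31.2%), namely Ccl9, Cxcl1, Cxcl2, Cxcl10, Il6, Nfkb2, Nfkbia, Nlrp3, Tlr2 and Tnfaip3, compared with 8.23% of 27025 genes with a promoter in the table and 7.25% of all 32851 windows. A match is a string of letters and not a measured binding site. Genes of NF-kB signalling were among those chosen by name, so the higher share in members is not an independent result. The 140 bases that end just before the start are printed 5′ to 3′ on the gene's strand, with capitals marking the matched letters, overlapping matches being merged.
Nfkbia, chr12:55492648-55492787, minus strand: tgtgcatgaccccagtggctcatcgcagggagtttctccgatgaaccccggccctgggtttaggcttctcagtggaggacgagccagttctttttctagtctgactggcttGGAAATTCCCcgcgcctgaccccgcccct
Tnfaip3, chr10:19015411-19015550, minus strand: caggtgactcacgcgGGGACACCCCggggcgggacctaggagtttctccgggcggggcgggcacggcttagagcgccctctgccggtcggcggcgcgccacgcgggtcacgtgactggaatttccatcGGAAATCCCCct
Ccl9, chr11:83578637-83578776, minus strand: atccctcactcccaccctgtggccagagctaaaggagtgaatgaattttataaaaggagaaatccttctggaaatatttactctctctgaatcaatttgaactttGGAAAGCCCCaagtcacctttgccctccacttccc
Cxcl1, chr5:90891105-90891244, plus strand: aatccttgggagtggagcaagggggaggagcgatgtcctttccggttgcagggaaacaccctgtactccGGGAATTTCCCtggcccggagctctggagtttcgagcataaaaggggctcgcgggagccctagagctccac
Cxcl2, chr5:90903759-90903898, plus strand: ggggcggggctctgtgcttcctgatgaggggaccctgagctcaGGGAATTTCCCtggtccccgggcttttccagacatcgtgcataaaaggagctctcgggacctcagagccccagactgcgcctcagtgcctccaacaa
Nfkbia, Ccl9, Cxcl1 and Cxcl2 each carried 1 stretch of matched letters in this window, and Tnfaip3 carried 2. Of the 10 members with a match, Nfkbia was higher and Ccl9 and Tnfaip3 were lower in HFD-fed Ogg1-/- livers than in HFD-fed WT livers. The other 7 did not pass the test. Among members with a promoter and no match, Casp1, Cxcl9, Il1a and Il1b were lower and Il6ra was higher, and the others did not pass. Of all genes, whether or not they had a match, 23.7% passed this comparison. Whether a match went with passing was not tested.

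On the HFD, 9 of the 43 members differed between Ogg1-/- and WT livers. The IL-1 genes Il1a and Il1b, the chemokines Ccl9 and Cxcl9, the NF-kB inhibitor Tnfaip3 and the inflammasome protease Casp1 were lower in Ogg1-/- livers, whereas the IL-6 receptor gene Il6ra, the cytokine Il15 and the NF-kB inhibitor Nfkbia were higher. Differences were moderate, spanning -0.94 to 0.50 on the log2 scale over all 43 members. The 9 members make up 20.9% of those measured, against 23.7% of all genes and 19.8% of all probe sets that passed the same test (limma, Benjamini-Hochberg adjusted p under 0.05 over all 35556 probe sets), so the share that passed was near the background. Among genes with a mean of log2 5 or more, 9 of 38 members passed, compared with 30.6% of all such genes. By direction, 3 members were higher (11.9% of all genes) and 6 were lower (11.8% of all genes). The median difference was 0.07 over the members and 0.03 over all genes. Il1a, Cxcl9 and Ccl9 also passed a fold of 1.5, which is 6.98% of the members, compared with 6.12% of all genes.

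The plot of genotype differences shows these members among the others of each role.

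**Figure D1:**
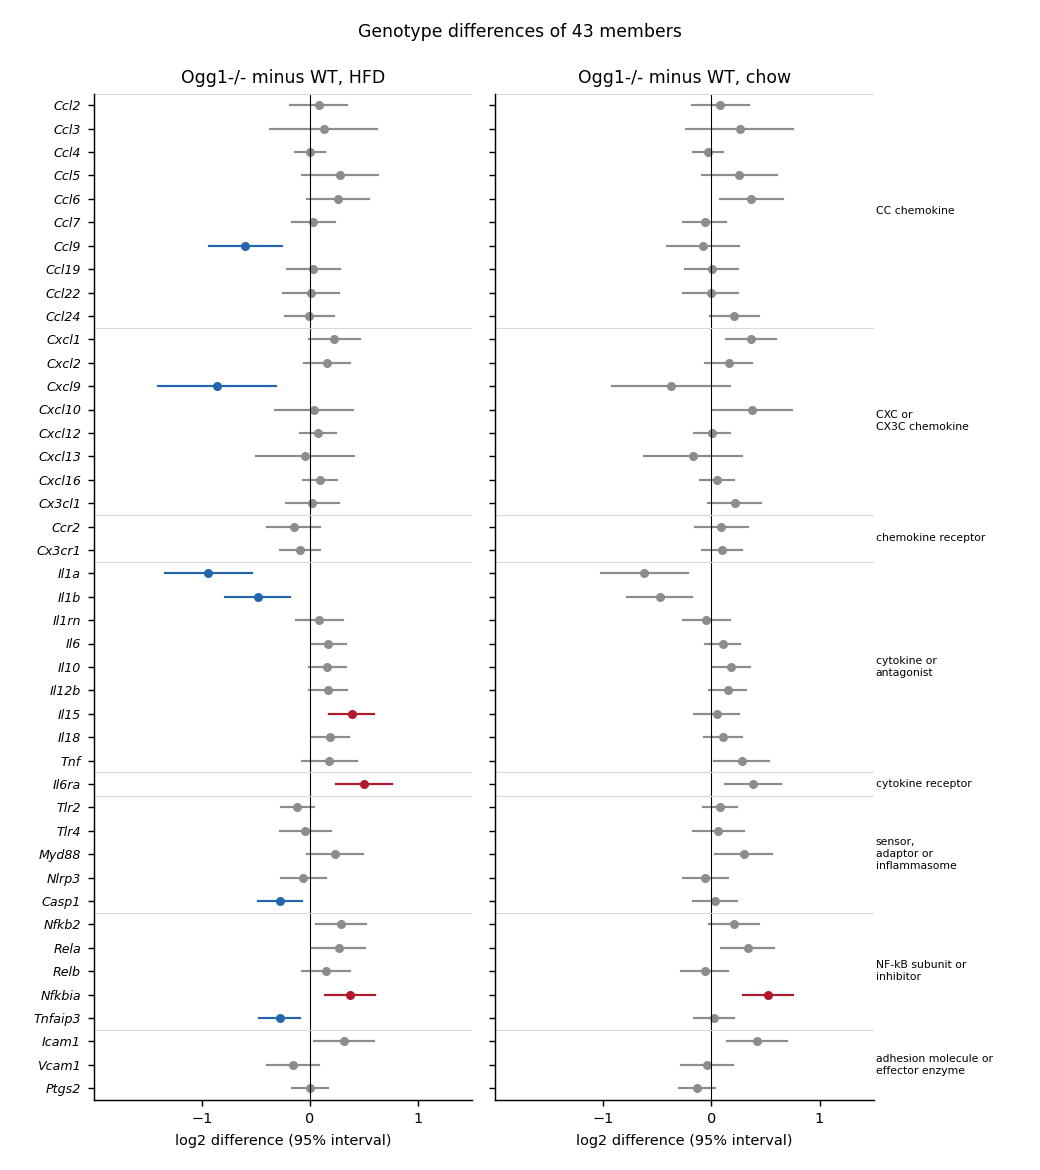
Log2 differences of the 43 members between Ogg1-/- and WT livers on the HFD (left) and on chow (right), with points for the limma estimate, bars for its 95% interval, and members grouped by role. Red members were higher and blue members lower at an adjusted p under 0.05, 9 of them on the HFD and Nfkbia alone on chow, and grey members did not pass.

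Among the cytokines, the largest difference was that of Il1a, an IL-1 receptor ligand released by stressed or dying cells and made by macrophages. Il1a ranged from log2 5.51 to 6.22 with a median of 5.90 in HFD-fed Ogg1-/- livers, against 6.30 to 7.21 with a median of 6.84 in HFD-fed WT livers. The groups did not overlap, and Il1a was 1.92-fold lower in Ogg1-/- livers (-0.94 ± 0.19, log2 difference ± SE, limma adjusted p = 0.0033). On chow, Il1a ranged from log2 5.49 to 6.90 with a median of 6.40 in Ogg1-/- livers and from 6.52 to 7.30 with a median of 7.03 in WT livers. The chow groups overlapped, and the difference of -0.62 (95% interval -1.02 to -0.22) did not pass after adjustment over all probe sets (limma adjusted p = 0.14).

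Il1b, the IL-1 receptor ligand that needs cleavage by caspase-1 and lies next to Il1a on chromosome 2, was lower as well. It ranged from log2 4.98 to 5.84 with a median of 5.38 in HFD-fed Ogg1-/- livers, against 5.60 to 6.16 with a median of 5.86 in HFD-fed WT livers. The ranges overlapped, since Ogg1-/- replicate 5 lay above 3 of the WT livers, and Il1b was 1.40-fold lower (-0.48 ± 0.15, limma adjusted p = 0.0222). On chow, Il1b had a range of log2 5.45 to 6.07 and a median of 5.72 in Ogg1-/- livers, and a range of 5.64 to 6.52 and a median of 6.23 in WT livers, a difference of -0.48 (95% interval -0.78 to -0.18) that did not pass (limma adjusted p = 0.133). Without HFD-fed Ogg1-/- replicate 2 or HFD-fed WT replicate 1, the HFD difference of Il1b no longer passed (adjusted p up to 0.0635). Casp1, the protease that matures IL-1β and IL-18, ranged from log2 4.83 to 5.50 with a median of 5.21 in HFD-fed Ogg1-/- livers and from 5.31 to 5.68 with a median of 5.49 in HFD-fed WT livers. Its difference of -0.27 ± 0.10 passed only at the edge (limma adjusted p = 0.0498) and was lost in 18 of the 24 fits that left out 1 array (adjusted p up to 0.143), all but those without HFD-fed Ogg1-/- replicate 4 or 5, chow-fed Ogg1-/- replicate 1 or 5, HFD-fed WT replicate 3 or chow-fed WT replicate 6. Casp1 did not pass on chow, where it ranged from log2 5.27 to 5.67 with a median of 5.41 in Ogg1-/- livers and from 5.30 to 5.60 with a median of 5.40 in WT livers (difference 0.03, 95% interval -0.17 to 0.23).

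Il15, a cytokine that sustains natural killer and memory T cells, moved the other way. Its values ran from log2 5.88 to 6.27 with a median of 6.01 in HFD-fed Ogg1-/- livers, against 5.47 to 5.73 with a median of 5.69 in HFD-fed WT livers. Every Ogg1-/- liver exceeded every WT liver on this diet, and Il15 was 1.31-fold higher (0.38 ± 0.10, limma adjusted p = 0.0113). On chow the genotypes overlapped fully, from log2 5.13 to 5.74 with a median of 5.51 in Ogg1-/- livers and from 5.06 to 5.71 with a median of 5.46 in WT livers, and the difference was 0.05 (95% interval -0.16 to 0.26).

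The other cytokines did not pass between genotypes. Tnf, the cytokine TNF made chiefly by macrophages, ranged from log2 5.44 to 5.92 with a median of 5.75 in HFD-fed Ogg1-/- livers and from 5.34 to 6.01 with a median of 5.49 in HFD-fed WT livers. The difference of 0.18 had a 95% interval of -0.08 to 0.44 (limma adjusted p = 0.353). Tnf on chow was 5.18 to 6.08 with a median of 5.55 in Ogg1-/- livers and 5.21 to 5.50 with a median of 5.28 in WT livers on the log2 scale, a difference of 0.28 (95% interval 0.02 to 0.54, limma adjusted p = 0.238). The TNF signals of the genotypes overlapped on both diets. Il6, the cytokine that drives acute phase protein synthesis in hepatocytes, was dim throughout, at log2 2.80 to 3.19 with a median of 3.08 in HFD-fed Ogg1-/- livers and 2.75 to 2.95 with a median of 2.84 in HFD-fed WT livers. On chow Il6 was equally dim, at log2 2.90 to 3.26 with a median of 3.03 in Ogg1-/- livers and 2.79 to 3.14 with a median of 2.93 in WT livers. Neither Il6 difference passed, with 0.17 on the HFD (95% interval 0.01 to 0.33, limma adjusted p = 0.134) and 0.11 on chow (95% interval -0.06 to 0.27). Il1rn, Il10, Il12b and Il18 did not pass between genotypes on either diet. Every chow-fed Ogg1-/- liver exceeded every chow-fed WT liver in Il12b, yet the ranges of log2 5.07 to 5.34 in Ogg1-/- livers and 4.90 to 5.07 in WT livers met at 5.07 after rounding (difference 0.15, limma adjusted p = 0.349).

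Il6ra, which encodes the IL-6 binding chain of the IL-6 receptor and is made by hepatocytes, had the largest positive difference of the members between genotypes on the HFD. It ranged from log2 9.12 to 9.74 with a median of 9.44 in HFD-fed Ogg1-/- livers, against 8.67 to 9.33 with a median of 8.79 in HFD-fed WT livers. Most Ogg1-/- livers lay above the WT livers although the ranges overlapped, and Il6ra was 1.41-fold higher (0.50 ± 0.13, limma adjusted p = 0.0085). On chow Il6ra ranged from log2 9.15 to 9.66 with a median of 9.23 in Ogg1-/- livers and from 8.66 to 9.19 with a median of 8.92 in WT livers. The chow difference of 0.39 (95% interval 0.13 to 0.65) did not pass (limma adjusted p = 0.151).

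**Figure D2:**
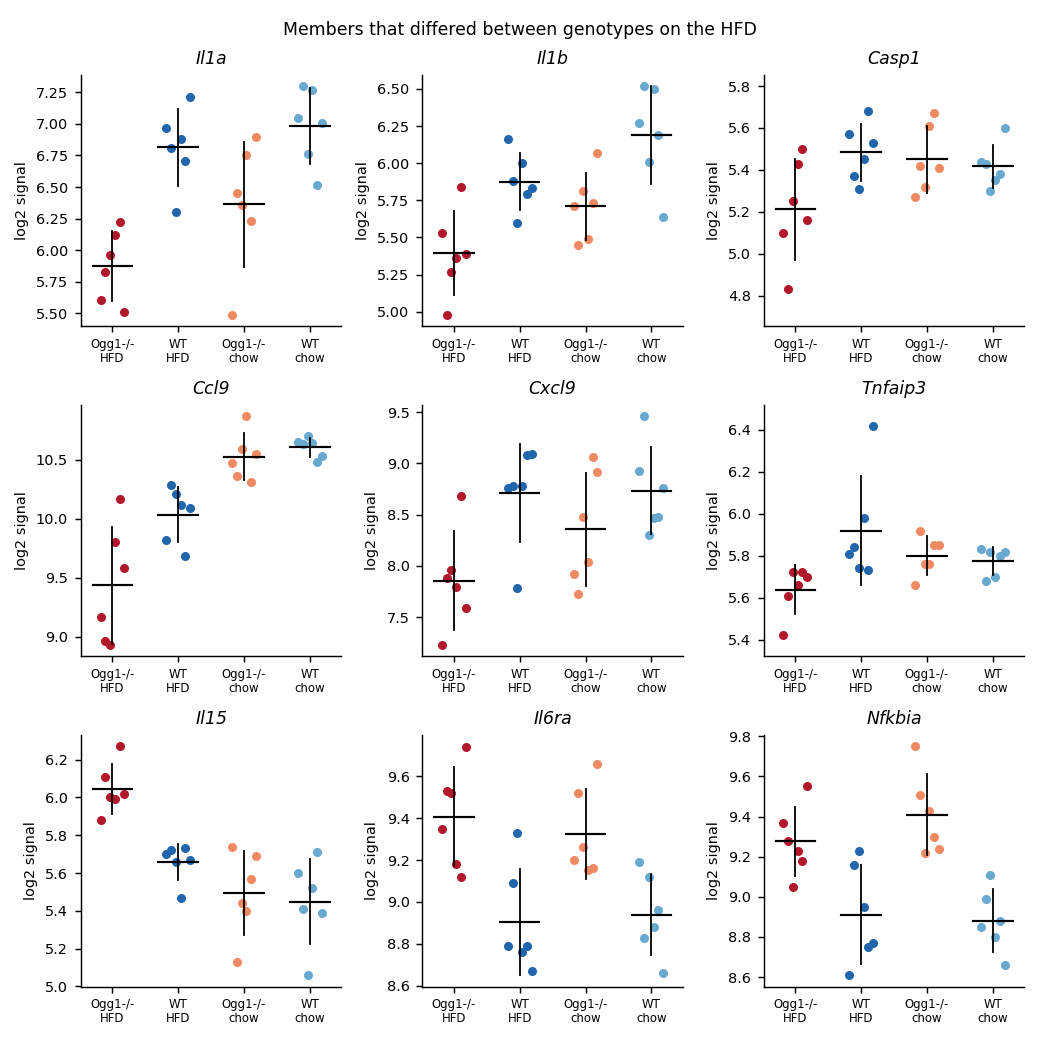
Log2 signal of the 9 members that differed between genotypes on the HFD, by group, with 1 point per liver, horizontal lines for group means and vertical lines for 1 SD (n = 6 each, y axes not starting at 0). Il1a, Tnfaip3 and Il15 did not overlap between HFD-fed Ogg1-/- and WT livers, with Il1a at 6.22 or lower in HFD-fed Ogg1-/- livers and at 6.30 or higher in HFD-fed WT livers.

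Of the 18 chemokines, Ccl9 and Cxcl9 passed between genotypes on the HFD. Ccl9, a CC chemokine of mice that signals through CCR1, ranged from log2 8.93 to 10.17 with a median of 9.38 in HFD-fed Ogg1-/- livers, against 9.68 to 10.29 with a median of 10.10 in HFD-fed WT livers. The ranges overlapped, with Ogg1-/- livers spread widely (SD 0.50) compared with WT livers (SD 0.23), and Ccl9 was 1.51-fold lower (-0.60 ± 0.16, limma adjusted p = 0.0127). The methods' t-test ended this call (adjusted p = 0.086). On chow Ccl9 was close between genotypes, at log2 10.31 to 10.87 with a median of 10.51 in Ogg1-/- livers and 10.48 to 10.70 with a median of 10.63 in WT livers (difference -0.08, 95% interval -0.41 to 0.26). Cxcl9, an interferon-γ-induced chemokine that attracts CXCR3-bearing T cells, ranged from log2 7.23 to 8.68 with a median of 7.83 in HFD-fed Ogg1-/- livers, against 7.78 to 9.09 with a median of 8.78 in HFD-fed WT livers. Apart from WT replicate 3, which had the lowest value of its group, every WT liver lay above every Ogg1-/- liver, and Cxcl9 was 1.81-fold lower (-0.86 ± 0.26, limma adjusted p = 0.0237). Leaving out HFD-fed Ogg1-/- replicate 1 or 6 or HFD-fed WT replicate 6 ended this call (adjusted p up to 0.0695). On chow Cxcl9 ranged from log2 7.73 to 9.06 with a median of 8.26 in Ogg1-/- livers and from 8.30 to 9.46 with a median of 8.62 in WT livers, and the difference of -0.37 (95% interval -0.92 to 0.17) did not pass.

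Cxcl10, an interferon-induced ligand of the same receptor that lies 1 gene away from Cxcl9 on chromosome 5, differed by 0.04 on the HFD (95% interval -0.33 to 0.40). The monocyte attractant Ccl2 ranged from log2 6.36 to 7.22 with a median of 6.75 in HFD-fed Ogg1-/- livers and from 6.46 to 7.07 with a median of 6.63 in HFD-fed WT livers, and on chow from 6.38 to 6.85 with a median of 6.43 in Ogg1-/- livers and from 6.10 to 6.56 with a median of 6.47 in WT livers. Ccl2 overlapped between genotypes on both diets, with a difference of 0.08 on the HFD (95% interval -0.18 to 0.34) and 0.08 on chow (95% interval -0.18 to 0.35). Cxcl1, a neutrophil attractant, had the highest genotype difference of the CXC and CX3C chemokines on the HFD. It ranged from log2 7.02 to 7.29 with a median of 7.19 in HFD-fed Ogg1-/- livers and from 6.63 to 7.23 with a median of 6.93 in HFD-fed WT livers, and the difference of 0.23 (95% interval -0.01 to 0.46) did not pass (limma adjusted p = 0.179). On chow Cxcl1 was 6.96 to 7.42 with a median of 7.19 in Ogg1-/- livers and 6.37 to 7.23 with a median of 6.86 in WT livers on the log2 scale, a difference of 0.37 (95% interval 0.13 to 0.60, limma adjusted p = 0.138). Ccl5, a T cell attractant, had the highest difference of the CC chemokines on the HFD, 0.28 (95% interval -0.07 to 0.63), with log2 7.95 to 8.56 in Ogg1-/- livers and 7.57 to 8.05 in WT livers. Of the chemokine receptor genes, Ccr2, the receptor of Ccl2, differed by -0.15 (95% interval -0.39 to 0.09) and Cx3cr1, the fractalkine receptor, by -0.09 (95% interval -0.28 to 0.09) on the HFD.

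The inhibitors of NF-kB passed in opposite directions on the HFD. Nfkbia ranged from log2 9.05 to 9.55 with a median of 9.26 in HFD-fed Ogg1-/- livers, against 8.61 to 9.23 with a median of 8.86 in HFD-fed WT livers. It was 1.29-fold higher with overlapping ranges (0.37 ± 0.11, limma adjusted p = 0.0238), and the call was lost without HFD-fed Ogg1-/- replicate 1 or 6 or HFD-fed WT replicate 1 or 6 (adjusted p up to 0.0696). Tnfaip3, which encodes A20, a ubiquitin-editing enzyme that ends NF-kB signalling, ranged from log2 5.42 to 5.72 with a median of 5.68 in HFD-fed Ogg1-/- livers, against 5.73 to 6.42 with a median of 5.83 in HFD-fed WT livers. The groups lay side by side without overlap, and Tnfaip3 was 1.22-fold lower (-0.28 ± 0.09, limma adjusted p = 0.0301). Without HFD-fed Ogg1-/- replicate 1 or 2, or HFD-fed WT replicate 4 or 6, Tnfaip3 did not pass (adjusted p up to 0.0855). On chow Tnfaip3 ranged from log2 5.66 to 5.92 with a median of 5.81 in Ogg1-/- livers and from 5.68 to 5.83 with a median of 5.81 in WT livers (difference 0.02, 95% interval -0.16 to 0.21). Counting groups without overlap over all 43 members, 1 member was higher and 2 were lower in HFD-fed Ogg1-/- livers, compared with 7.38% and 7.99% of all genes.

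The NF-kB subunit genes had positive differences that did not pass, Nfkb2 with 0.28 (95% interval 0.05 to 0.52, limma adjusted p = 0.0779), Rela with 0.26 (95% interval 0.02 to 0.51, limma adjusted p = 0.125) and Relb with 0.15 (95% interval -0.07 to 0.37). Tlr4, the receptor of bacterial lipopolysaccharide, ranged from log2 4.22 to 4.94 with a median of 4.74 in HFD-fed Ogg1-/- livers and from 4.47 to 4.99 with a median of 4.67 in HFD-fed WT livers. In chow-fed mice Tlr4 was 4.61 to 5.0 with a median of 4.90 in Ogg1-/- livers and 4.57 to 4.97 with a median of 4.84 in WT livers on the log2 scale. This dim gene overlapped between genotypes on both diets, with a difference of -0.05 on the HFD (95% interval -0.28 to 0.19) and 0.06 on chow (95% interval -0.17 to 0.30). Myd88, the adaptor of most Toll-like receptors and of the IL-1 receptor, differed by 0.23 on the HFD (95% interval -0.03 to 0.49), with log2 9.41 to 9.85 in Ogg1-/- livers and 9.32 to 9.53 in WT livers. Of the adhesion molecules, Icam1 differed by 0.32 (95% interval 0.04 to 0.60, limma adjusted p = 0.101) and Vcam1 by -0.15 (95% interval -0.40 to 0.09).

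On chow, Nfkbia alone passed between genotypes. Nfkbia ranged from log2 9.22 to 9.75 with a median of 9.36 in chow-fed Ogg1-/- livers, against 8.66 to 9.11 with a median of 8.86 in chow-fed WT livers. No chow-fed WT liver reached the lowest Ogg1-/- liver, and Nfkbia was 1.44-fold higher (0.53 ± 0.11, limma adjusted p = 0.0295). This 1 member is 2.33% of the 43, against 0.617% of all genes, and 12 members (27.9%) had an unadjusted p under 0.05, compared with 21.1% of all genes. The call was lost without chow-fed Ogg1-/- replicate 1, 2 or 4 or without chow-fed WT replicate 1, 4, 5 or 6 (adjusted p up to 0.0994). In contrast, 3 members passed without chow-fed Ogg1-/- replicate 6. The share of all genes was not counted in the fits that left out an array. Icam1, an adhesion molecule that leukocytes bind on endothelium, had the largest chow difference of the members that passed in no comparison, 0.42 (95% interval 0.15 to 0.70, limma adjusted p = 0.143). Groups did not overlap for Nfkbia and Il12b on chow, both higher in Ogg1-/- livers, compared with 0.727% of all genes that were higher and 0.502% that were lower without overlap.

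The genotype difference on the HFD was not shown to differ from that on chow for any member. No member passed the interaction test (limma, lowest adjusted p = 0.659), and 1 of 19938 genes did (0.00502%). At an unadjusted p under 0.05 there were 4 members (9.3%, compared with 6.07% of all genes), Tnfaip3 with an interaction of -0.31 (95% interval -0.57 to -0.04), Il15 with 0.34 (95% interval 0.04 to 0.63), Ccl9 with -0.52 (95% interval -1.0 to -0.05) and Casp1 with -0.31 (95% interval -0.59 to -0.02). Il1a had an interaction of -0.32 (95% interval -0.89 to 0.25), Il1b of -0.01 (95% interval -0.43 to 0.42) and Nfkbia of -0.16 (95% interval -0.49 to 0.17).

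HFD feeding changed 6 members in Ogg1-/- livers and 2 in WT livers. In Ogg1-/- livers Ccl6, Il15, Il1rn and the dim Cxcl2 were higher and Ccl9 and Cxcl13 were lower on the HFD, and in WT livers Ccl6 was higher and Cxcl13 was lower. These counts are 14.0% of the members in Ogg1-/- livers, against 11.5% of all genes, and 4.65% in WT livers, against 1.11% of all genes (limma, adjusted p under 0.05). The genotype and diet comparisons use the same 4 groups, so that each shares livers with others and they are not independent of one another. Ccl9 and Cxcl13 also passed a fold of 1.5 in Ogg1-/- livers (3.44% of all genes did), as did Ccl6 and Cxcl13 in WT livers (0.517% of all genes did). The diets did not overlap for Il1rn and Il15 (higher, 1.96% of all genes) and Ccl9 and Cxcl13 (lower, 0.873% of all genes) in Ogg1-/- livers, nor for Ccl6 (higher, 1.56% of all genes) and Ccl9 and Cxcl13 (lower, 0.802% of all genes) in WT livers.

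**Figure D3:**
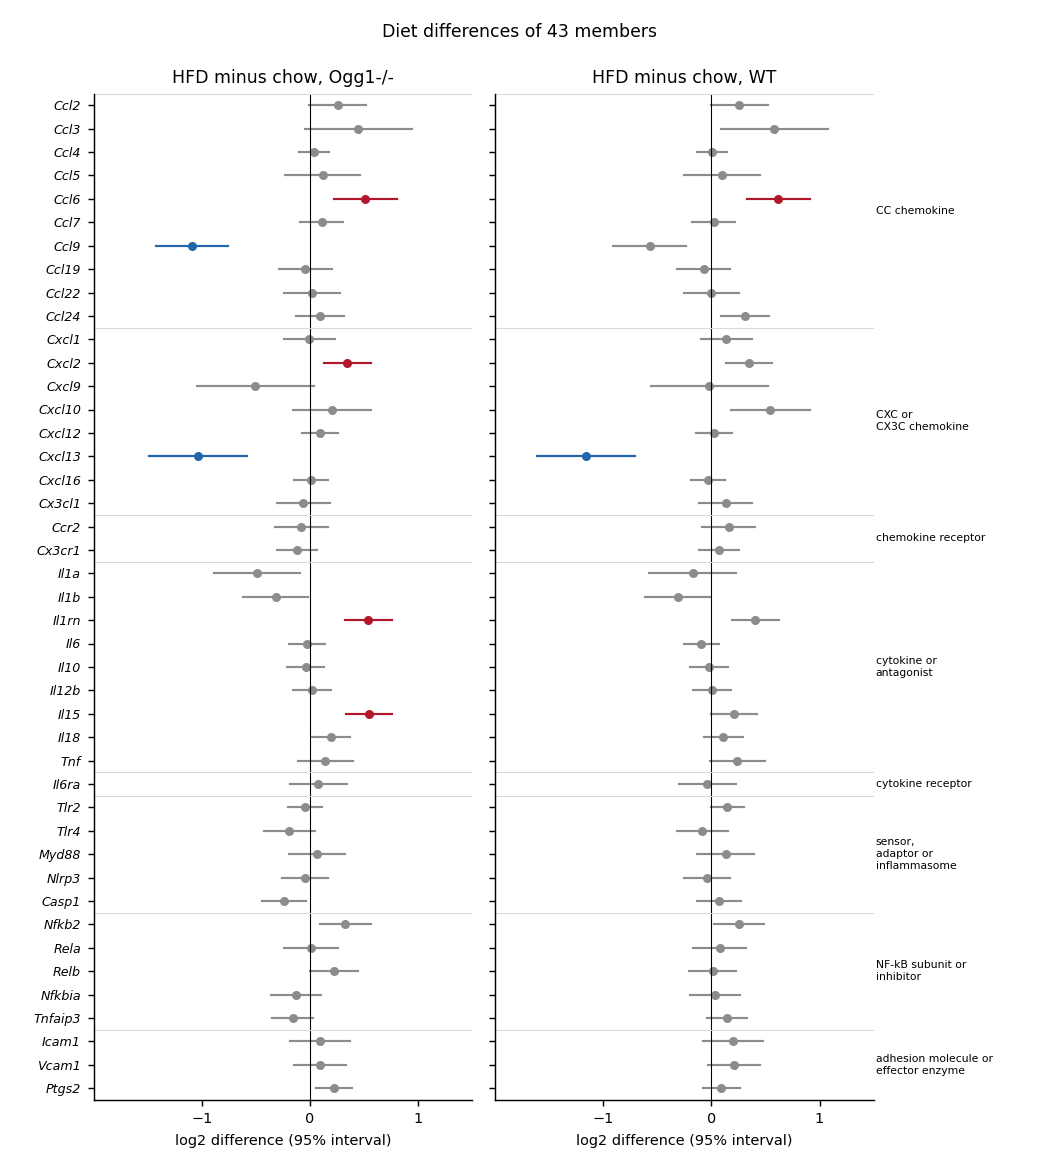
Log2 differences of the 43 members between HFD and chow in Ogg1-/- livers (left) and in WT livers (right), with points for the limma estimate and bars for its 95% interval. Ccl6 (red) was higher and Cxcl13 (blue) was lower on the HFD in both genotypes, whereas Ccl9, Cxcl2, Il1rn and Il15 passed in Ogg1-/- livers only, and no difference between the genotypes in these diet effects passed the interaction test.

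Cxcl13, a B cell attractant, had the largest diet difference of the members in WT livers. It ranged from log2 6.81 to 7.64 with a median of 7.40 in HFD-fed Ogg1-/- livers, against 8.08 to 8.59 with a median of 8.40 in chow-fed Ogg1-/- livers. In WT livers it ranged from log2 6.31 to 8.11 with a median of 7.45 on the HFD, against 8.16 to 8.90 with a median of 8.54 on chow. The diets did not overlap in either genotype. Cxcl13 was 2.05-fold lower on the HFD in Ogg1-/- livers (-1.04 ± 0.22, limma adjusted p = 0.0060) and 2.23-fold lower in WT livers (-1.16 ± 0.22, limma adjusted p = 0.0093). The call in WT livers was lost with only the arrays of the 2 groups in limma (adjusted p = 0.052) and with the methods' t-test (adjusted p = 0.104). Between HFD-fed Ogg1-/- and WT livers Cxcl13 differed by -0.05 (95% interval -0.50 to 0.40), and between chow-fed Ogg1-/- and WT livers by -0.17 (95% interval -0.62 to 0.28).

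Ccl9 and Ccl6, neighbouring genes on chromosome 11 within the CC chemokine cluster, had diet differences of opposite sign. Ccl9 was 2.13-fold lower on the HFD in Ogg1-/- livers (-1.09 ± 0.16, limma adjusted p = 0.00033), with every HFD-fed liver under every chow-fed liver. In WT livers the diets did not overlap either, but the difference of -0.57 (95% interval -0.91 to -0.23) did not pass (limma adjusted p = 0.103). Ccl6, which like Ccl9 is a chemokine of macrophages and other myeloid cells, ranged from log2 7.92 to 8.40 with a median of 8.13 in HFD-fed Ogg1-/- livers, against 7.01 to 8.13 with a median of 7.67 in chow-fed Ogg1-/- livers. Its range in WT livers was 7.64 to 8.20 with a median of 7.82 on the HFD, against 7.0 to 7.56 with a median of 7.27 on chow, on the log2 scale. The diets overlapped in Ogg1-/- livers and not in WT livers. Ccl6 was 1.43-fold higher on the HFD in Ogg1-/- livers (0.51 ± 0.14, limma adjusted p = 0.0238) and 1.54-fold higher in WT livers (0.62 ± 0.14, limma adjusted p = 0.0294). The call in Ogg1-/- livers was lost without HFD-fed replicate 1 or 6 or chow-fed replicate 5 (adjusted p up to 0.0694). That in WT livers was lost without HFD-fed replicate 3 or 5 or chow-fed replicate 1, 4 or 6 (adjusted p up to 0.0872). With only the arrays of the 2 groups in limma and with the methods' t-test the call in Ogg1-/- livers was lost too. The axis score described below also ended it (limma adjusted p = 0.158), and a replicate block ended the call in WT livers. Between genotypes Ccl6 did not pass, with 0.26 on the HFD (95% interval -0.03 to 0.55) and 0.37 on chow (95% interval 0.08 to 0.66, limma adjusted p = 0.183).

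Il1rn, the secreted antagonist that blocks the IL-1 receptor, ranged from log2 6.46 to 6.99 with a median of 6.83 in HFD-fed Ogg1-/- livers, against 6.09 to 6.32 with a median of 6.29 in chow-fed Ogg1-/- livers. The diets did not overlap in Ogg1-/- livers, and Il1rn was 1.45-fold higher on the HFD (0.54 ± 0.11, limma adjusted p = 0.0036). In WT livers Il1rn ranged from log2 6.49 to 7.10 with a median of 6.59 on the HFD and from 6.12 to 6.58 with a median of 6.25 on chow, a difference of 0.40 (95% interval 0.19 to 0.62) that did not pass (limma adjusted p = 0.0682). Il1rn differed by 0.09 between HFD-fed Ogg1-/- and WT livers (95% interval -0.13 to 0.31) and by -0.05 between chow-fed Ogg1-/- and WT livers (95% interval -0.26 to 0.17). Il15 was 1.46-fold higher on the HFD in Ogg1-/- livers (0.55 ± 0.10, limma adjusted p = 0.0025), without overlap between diets, and differed by 0.21 in WT livers (95% interval 0.00 to 0.42, limma adjusted p = 0.372). Cxcl2, a neutrophil attractant that neighbours Cxcl1 on chromosome 5, ranged from log2 4.58 to 5.12 with a median of 4.78 in HFD-fed Ogg1-/- livers, against 4.23 to 4.65 with a median of 4.48 in chow-fed Ogg1-/- livers. It was 1.27-fold higher with overlapping ranges (0.35 ± 0.10, limma adjusted p = 0.0383), at a mean signal under log2 5. The call was lost without HFD-fed Ogg1-/- replicate 2, 5 or 6 or chow-fed Ogg1-/- replicate 2, 3, 4, 5 or 6 (adjusted p up to 0.0964). Only the arrays of the 2 groups in limma, the methods' t-test and the axis score (limma adjusted p = 0.173) each ended it as well. In WT livers Cxcl2 ranged from log2 4.39 to 4.86 with a median of 4.70 on the HFD and from 4.11 to 4.54 with a median of 4.29 on chow, a difference of 0.35 (95% interval 0.13 to 0.56) that did not pass (limma adjusted p = 0.128). Cxcl2 differed by 0.16 between genotypes on each diet (95% intervals -0.06 to 0.37 on the HFD and -0.06 to 0.38 on chow).

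**Figure D4:**
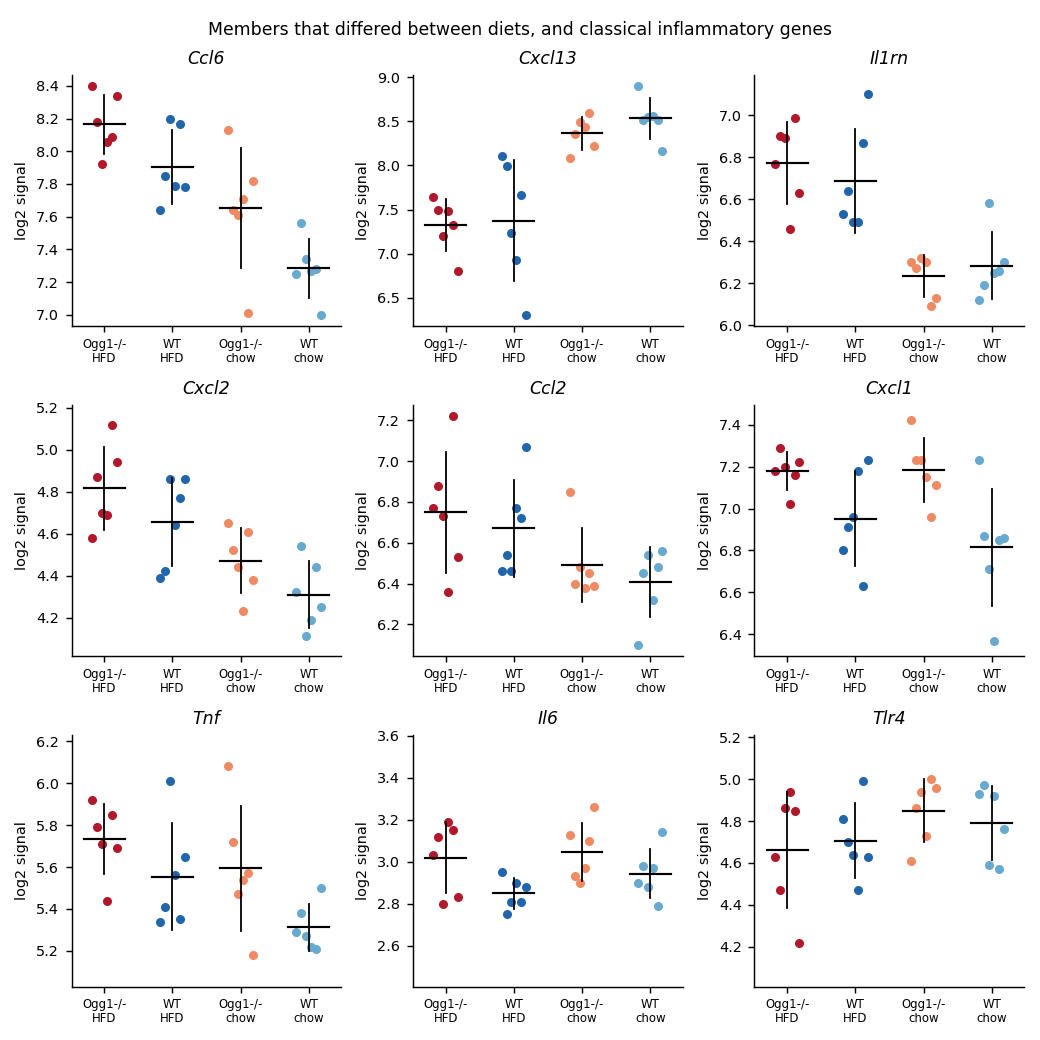
Log2 signal of 4 members that differed between diets (Ccl6, Cxcl13, Il1rn and Cxcl2) and of Ccl2, Cxcl1, Tnf, Il6 and Tlr4, by group, with 1 point per liver, horizontal lines for means and vertical lines for 1 SD (n = 6 each, y axes not starting at 0). Cxcl13 lay at or above log2 8.08 in all chow-fed livers, and Ccl2, Tnf, Il6 and Tlr4 overlapped between all groups.

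Of the classical inflammatory genes, Ccl2 differed between HFD and chow by 0.26 in Ogg1-/- livers (95% interval -0.01 to 0.52, limma adjusted p = 0.212) and by 0.26 in WT livers (95% interval 0.00 to 0.52, limma adjusted p = 0.377). Tnf differed by 0.14 in Ogg1-/- livers (95% interval -0.12 to 0.40) and by 0.24 in WT livers (95% interval -0.01 to 0.50). Cxcl1, Il6, Tlr4 and Nfkbia had diet differences of -0.19 to 0.14 in the 2 genotypes, none of which passed. Il1a and Il1b also did not pass between diets, Il1a with -0.49 in Ogg1-/- livers (95% interval -0.89 to -0.09, limma adjusted p = 0.111) and Il1b with -0.32 (95% interval -0.62 to -0.02, limma adjusted p = 0.173). The 25 members other than these and the members that passed did not pass in any comparison. Their diet differences ran from -0.12 for Cx3cr1 to 0.45 for Ccl3, a macrophage inflammatory protein, in Ogg1-/- livers and from -0.07 for Ccl19 to 0.58 for Ccl3 in WT livers. Between genotypes they ran from -0.15 for Vcam1 to 0.32 for Icam1 on the HFD, the limits of the 95% intervals reaching from -0.40 to 0.63, and from -0.13 for Ptgs2 to 0.42 for Icam1 on chow.

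The members varied between livers of a group. The median SD over the 43 members was 0.17 in HFD-fed Ogg1-/- livers (0.14 over all genes), 0.20 in HFD-fed WT livers (0.15 over all genes), 0.20 in chow-fed Ogg1-/- livers (0.19 over all genes) and 0.16 in chow-fed WT livers (0.14 over all genes). Some livers were high for many members at once. HFD-fed Ogg1-/- replicate 5 was the highest of its group for 20 of the 43 members (46.5%, compared with 13.5% of all genes), among them Ccl2, Ccl3, Ccl5, Cxcl10, Icam1 and Vcam1. HFD-fed WT replicate 6 was the highest for 16 members (37.2%, compared with 19.5% of all genes), among them Ccl3, Cxcl10, Ccr2 and Cx3cr1, and chow-fed Ogg1-/- replicate 1 for 22 members (51.2%, compared with 40.1% of all genes), among them Rela, Myd88, Nfkb2 and Icam1. Within HFD-fed Ogg1-/- livers Cxcl10 reached log2 8.74 in replicate 5 at a group median of 7.96, and Ccl3 reached 7.25 at a group median of 6.54. In chow-fed Ogg1-/- livers Rela reached log2 10.86 in replicate 1 at a group median of 10.03.

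**Figure D5:**
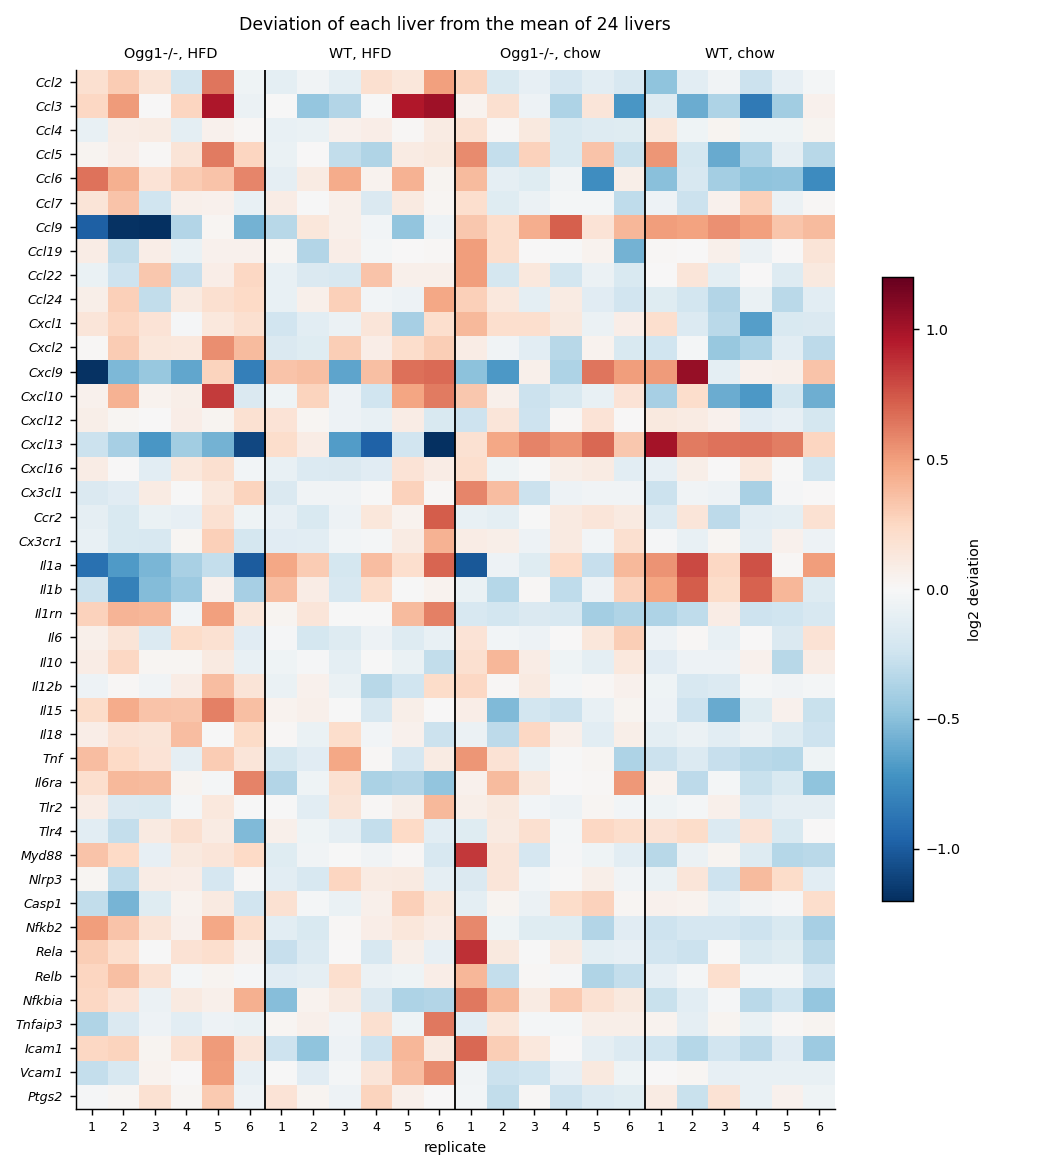
Deviation of each of the 24 livers (columns, by group and replicate) from the mean of all livers for each of the 43 members (rows, by role), on the log2 scale, red above and blue below the mean, with the end colours also taken by values beyond the scale. Il1a is blue in all 6 HFD-fed Ogg1-/- livers, Cxcl13 is red in all 12 chow-fed livers, and HFD-fed Ogg1-/- replicate 5 is the highest of its group for 20 members.

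Other genes of the same pathways, from lists of non-members, also differed on the HFD. Of 47 measured genes, 6 were higher and 15 were lower in HFD-fed Ogg1-/- livers than in HFD-fed WT livers (limma, adjusted p under 0.05). Among all genes 11.9% were higher and 11.8% lower, and among those with a mean of log2 5 or more 15.4% and 15.3%. The alternative fits and the omission of arrays were run for the members only. In Toll-like and IL-1 receptor signalling, 3 of 12 were higher and 5 were lower, including Map3k7, which encodes the kinase TAK1 (-0.86, adjusted p = 0.0039), its binding partner Tab2 (-1.07, adjusted p = 0.0031), the ubiquitin ligase gene Traf6 (-0.66, adjusted p = 0.0049) and Irak1, a receptor-proximal kinase gene (0.30, adjusted p = 0.0034). In the list of other NF-kB kinases, subunits and inhibitors, 1 of 10 was higher and 5 were lower, among them the subunit gene Rel (-0.69, adjusted p = 0.0028), the ubiquitin ligase gene Birc3 (-0.82, adjusted p = 0.0028) and the IkB kinase genes Ikbkb (-0.45, adjusted p = 0.0063) and Ikbkg (-0.55, adjusted p = 0.0077).

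Of 9 genes of other cytokine receptors and their partners, 1 was higher, 2 were lower and 6 did not pass on the HFD, where 23.7% of all genes passed. Il1rap, the shared chain of the IL-1 receptor, was lower by -0.76 ± 0.20 in HFD-fed Ogg1-/- livers (limma adjusted p = 0.0108), and so was Il6st, the gp130 chain that signals for the IL-6 receptor (-0.59 ± 0.16, limma adjusted p = 0.0118), whereas the TNF receptor gene Tnfrsf1a was higher (0.40 ± 0.11, limma adjusted p = 0.0169). In JAK-STAT3 signalling of IL-6, 1 of 6 genes was higher and 3 were lower, namely Tyk2 (0.21, adjusted p = 0.0285) and the kinase genes Jak1 (-0.94, adjusted p = 0.0042) and Jak2 (-0.71, adjusted p = 0.0215) and the phosphatase gene Ptpn11 (-0.31, adjusted p = 0.0432). None of 10 other chemokine receptor genes passed. On chow none of the 47 genes passed (limma), and 19 (40.4%) had an unadjusted p under 0.05, compared with 21.1% of all genes.

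Of 73 markers of liver and blood cell types, 5 were higher and 11 were lower in HFD-fed Ogg1-/- livers than in HFD-fed WT livers (21.9%, against 23.7% of all genes), a share near the background. Of 8 endothelial markers, 6 were lower in HFD-fed Ogg1-/- livers and none was higher. Among all genes 11.8% were lower (15.3% at a mean of log2 5 or more). The mean of these markers was log2 8.14 to 8.34 in HFD-fed Ogg1-/- livers and 8.43 to 8.84 in HFD-fed WT livers, without overlap. Of all genes taken singly, 7.99% were lower without overlap. Of 13 Kupffer cell and macrophage markers, C1qa, C1qc and Cd5l were higher and Vsig4 (-0.85) and Clec4f (-0.22) were lower, and their mean level was log2 8.69 to 8.82 in HFD-fed Ogg1-/- livers and 8.61 to 8.91 in HFD-fed WT livers. Of 7 stellate cell markers, Dcn and Lrat were lower, of 5 B cell markers Ms4a1 was lower, and of 9 T and NK cell markers Nkg7 was higher. No marker of monocytes, neutrophils, dendritic cells, cholangiocytes, hepatocytes or adipocytes passed on the HFD, and of 2 erythroid markers Alas2 was higher. On chow none of the 73 markers passed between genotypes (limma), and 9 (12.3%) had an unadjusted p under 0.05, compared with 21.1% of all genes. The part of these cell types in the differences of the members was not tested.

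A pattern that many genes shared among livers also ran along with genotype on the HFD. The first principal component of the deviations of chow-fed livers from their group means (40.2% of that variation), on which chow-fed Ogg1-/- replicate 1 had the highest score of all livers (80.9), gave scores of 18.5 to 54.8 in HFD-fed Ogg1-/- livers, against -20.7 to 10.4 in HFD-fed WT livers. With the score on this axis as a covariate none of the 43 members passed between genotypes on the HFD. The 9 members then had adjusted p of 0.0702 to 0.483 (limma), and 2.71% of all probe sets passed. With the score 8 members had an unadjusted p under 0.05 (limma), and the matching share of all genes was not counted. Without the score there were 14 (32.6%), compared with 35.9% of all genes. Score and genotype cannot be told apart on the HFD, where the scores of the genotypes did not overlap. A lost call need not mean a smaller difference, since the SE of Ccl9 was 0.16 without the score and 0.19 with it. The 9 differences did not shrink alike. Il6ra (0.50), Il15 (0.38), Ccl9 (-0.55) and Il1b (-0.43) kept 89.9% to 99.3% of their difference, Tnfaip3 (-0.22) kept 76.8%, and Il1a (-0.50), Cxcl9 (-0.48), Casp1 (-0.15) and Nfkbia (0.18) kept 49.5% to 55.6%. Without HFD-fed Ogg1-/- replicate 1 or without HFD-fed WT replicate 6, 5 members passed in place of 9. The share of all genes was not counted in either fit.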

How the data were processed

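Liver RNA of 24 mice (4 groups of 6, 1 array per mouse) was hybridised to Affymetrix Mouse Gene ST arrays. The authors deposited log2 signals per probe set, and the submitters' processing notes name RMA, a method that corrects background, scales arrays to a common distribution and combines the probes of a probe set. The study's own analysis used GC-RMA in GeneSifter, and no source used here gives the genome build behind the probe sets. Array medians were log2 5.90 to 5.97. RMA compresses differences of dim genes, and the number of arrays limits the precision.

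Genes were named through the platform annotation. Of 35556 probe sets, 21789 carried 1 symbol, 1621 several and 12146 none in the table used here, and 21698 of those with 1 symbol were updated through Entrez identifiers to RefSeq (GRCm38.p6). The 45 members and all lists were chosen with earlier results of these data known. For each gene the probe set with the highest mean over 24 arrays was used, and a mean log2 under 5 was called dim.

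Probe sets were fitted with limma 3.58.1 in R 4.3.3 (means of 4 groups, all arrays, empirical Bayes), tested on simulated data first, and p-values were adjusted over all 35556 probe sets by Benjamini-Hochberg for each of 5 comparisons. A member passed at an adjusted p under 0.05, and a fold of 1.5 was counted beside it. Fold changes are on the RMA signal scale. Replicates are separate mice. Values in all groups are given for members that passed in any comparison and for Ccl2, Cxcl1, Il1b, Il6, Tnf, Nfkbia and Tlr4, for the others counts, ranges and the extremes of each role, and up to 4 passing genes of each pathway list, smallest adjusted p first. Rela, Relb, Nfkb2, Cxcl10, Il12b and Ccl3 were singled out after their values were seen. Alternatives were other scalings, tests, filters, array weights, a replicate block, a covariate and the omission of each array.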

Additional observations from a re-analysis of the deposited data

Results flagged for a closer look

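For the 18 members given with values and for Ogg1, 76 groups of 6 livers were examined for a liver far from the others, using the gap to the nearest liver divided by the range of the group and the 95% critical value of Dixon's test. Chance passes about 5% of such groups. In all, 6 groups exceeded it. Ccl2 was highest in chow-fed Ogg1-/- replicate 1 at log2 6.85, with the other 5 livers at 6.48 or lower (ratio 0.775). Cxcl9 was lowest in HFD-fed WT replicate 3 at 7.78, with the other WT livers at 8.76 or higher (0.75). Il15 was lowest in HFD-fed WT replicate 4 at 5.47, against 5.66 or higher in the others (0.733). Tnfaip3 was lowest in HFD-fed Ogg1-/- replicate 1 at 5.42 (0.652) and highest in HFD-fed WT replicate 6 at 6.42 (0.627), livers whose omission ended its genotype call. Ogg1 was lowest in chow-fed WT replicate 4 at 6.26, above every chow-fed Ogg1-/- liver (0.637).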

How the results depend on the processing

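Of the 9 members that passed between genotypes on the HFD, 3 also passed a fold of 1.5 and 0 passed with the axis score as a covariate. With this score Il6ra, Il15, Ccl9 and Il1b kept 89.9% or more of their difference, and on the HFD score and genotype cannot be told apart. The methods' t-test called 7 members, 4 of them among the 9, and Casp1, Ccl9, Cxcl9, Nfkbia and Tnfaip3 lost their call (adjusted p 0.0502 to 0.118). The single member that passed between genotypes on chow fell to 0 with the replicate block, with array weights, with only the arrays of the 2 groups, with the methods' t-test, with the axis score and with a fold of 1.5. In Ogg1-/- livers 6 members passed between diets, compared with 11 with array weights and 2 with a fold of 1.5. In WT livers 2 passed, compared with 1 with the replicate block. Leaving out each array in turn gave 5 to 13 members between genotypes on the HFD, 0 to 3 on chow, 0 to 0 for the interaction, 4 to 11 between diets in Ogg1-/- livers (11 without chow-fed Ogg1-/- replicate 1) and 1 to 3 in WT livers. Except for the axis score and the fold of 1.5, shares of all genes were not counted in these fits. A changed count is therefore not a result about the members alone. Replicate numbers were not shown to pair the livers. Over 36 pairs of groups and numbers the correlation of deviations was -0.27 to 0.43 (median -0.034, 10 above 0.1), which cannot exclude pairing. The replicate block left 9 members on the HFD. Of the 18 single results that passed, no direction reversed in 179 comparisons with alternatives (146 kept, 33 lost their call) or in 432 with 1 array left out (378 kept, 54 lost). Il15, Il1rn, Ccl9 and Cxcl13 between diets in Ogg1-/- livers kept their call in every alternative and omission that was run, and Casp1 lost it in 6 of 10 alternatives. With dim probe sets left out, Cxcl2 could not be fitted. The cause of these changes was not tested. Signals near the dim end of the array, with means under log2 5, limit what can be read for Cxcl2, Ccr2, Il6, Il10 and Tlr4. Of the 9 members called between genotypes on the HFD, some were above log2 5 yet averaged under every array median (5.90 or more). They were Casp1 (5.39), Il15 (5.66), Tnfaip3 (5.78) and Il1b (5.79), which are not bright either.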
